A study of Mus musculus with 2 samples.

Results

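Elavl1, Elavl2, Elavl3, Elavl4, Nova1, Nova2, Ptbp1, Ptbp2 and Ptbp3 encode RNA-binding proteins that control splicing, stability and translation of other transcripts, and their own mRNAs were examined here for N6-methyladenosine (m6A). Sites were assigned to a gene when they lay inside its GENCODE M21 interval on its strand in the GRCm38 (mm10) genome. All 9 genes were found, and together they held 333 of the 219409 positions in the united lists of the study. The cerebellum list placed 165 of its 79355 sites in these genes and the cerebrum list 249 of its 188295. The data came from GLORI, a chemical assay in which glyoxal and nitrite convert adenosines that lack a methyl group, so that they are sequenced as G, and leave m6A to be sequenced as A. There was 1 library for each tissue, made from poly(A)+ RNA of F1r pups at P0, the day of birth, F1r being the hybrid of C57 dams and PWK sires, and by the methods of the study both tissues were taken from a single female. Both samples shared sex, age, cross and the GLORI treatment, and tissue was the only labelled difference between them.

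The files list positions and strands, with 0 methylation rates and 0 read counts, and the depth of each site is therefore unknown. A position that is not listed may be unmethylated, thinly covered or not expressed, and these cannot be told apart. With 1 library for each tissue no test between tissues was possible, and the intervals given below are 95% Wilson intervals over sites or adenosines, which cover counting error only. In the cerebellum, 41.2% of the 21938 annotated coding genes had at least 1 listed site, and in the cerebrum 57.4%, while all 9 genes had at least 1 in each list.

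m6A is deposited on nascent RNA by the Mettl3-Mettl14 complex, mostly within the DRACH motif (D is A, G or T, R is A or G, and H is A, C or T), and it is known for its enrichment in long exons and around stop codons. The Elavl (Hu) proteins bind AU- and U-rich elements and stabilise mRNAs. Elavl1 (HuR) is expressed in nearly all cells, while Elavl2 (HuB), Elavl3 (HuC) and Elavl4 (HuD) are neuronal. Nova1 and Nova2 are KH-domain splicing regulators of neurons that bind YCAY clusters, with Nova2 the main form of the neocortex and Nova1 prominent in the hindbrain and ventral brain. The Ptbp proteins bind CU-rich RNA and mostly repress exons: Ptbp1 is the form of progenitors and non-neuronal cells, Ptbp2 replaces it in neurons, and Ptbp3 is a further paralog first described in blood cells. Ptbp1 lowers Ptbp2 by causing an exon of its transcript to be skipped.

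The Elavl genes lie at chr8:4285382-4325413 (Elavl1), chr4:91250763-91400785 (Elavl2), chr9:22015005-22052023 (Elavl3) and chr4:110203722-110351909 (Elavl4), all on the minus strand. Nova1 lies at chr12:46694517-46818929 on the minus strand and Nova2 at chr7:18925888-18965319 on the plus strand. Ptbp1 lies at chr10:79854427-79864771 on the plus strand, Ptbp2 at chr3:119718742-119784466 and Ptbp3 at chr4:59471868-59549364, both on the minus strand. Their longest coding isoforms have 4 exons (Nova2) to 14 exons (Ptbp2 and Ptbp3) and are 3169 nt (Ptbp1) to 8372 nt (Nova2) long.

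The sequences below show a DRACH site of each gene near the stop codon, the part of the mRNA where m6A is best known. For every gene except Ptbp1 this is the DRACH site present in both lists that is nearest to the stop codon, and for Ptbp1 it is the nearest DRACH site of the cerebrum list. Each run is 21 nt of the sense strand of GRCm38, read 5′ to 3′ with T for U, and the capitals mark the 5-mer with the listed adenosine at its centre.
Elavl1: cccacaaaTAACTcgctcatg
Elavl2: ctcctttaAGACAaacaaaac
Elavl3: agcttttcGGACCctttgggg
Elavl4: atatatacGAACAaaacatgc
Nova1: cattactgGAACAccagctgc
Nova2: ctcccgccAGACTtcagcttg
Ptbp1: gttttaagTAACTttttatag
Ptbp2: tcacctatTGACTgttcagaa
Ptbp3: cttatactGGACCacagtttc

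The Elavl1 site, at position 4289600 of chromosome 8 on the minus strand, is the last base of the TAA stop codon itself. In the same coordinate, counted from the last base of the stop codon, the Elavl2 site (chromosome 4, position 91253263, minus strand) lay at -23 nt, the Nova1 site (chromosome 12, position 46700064, minus strand) at -95 nt and the Elavl3 site (chromosome 9, position 22018692, minus strand) at -189 nt, all in the coding sequence of the last exon. The other sites were in the 3′ UTR of the last exon. Ptbp3 (chromosome 4, position 59476852, minus strand) carried its site at 31 nt, Elavl4 (chromosome 4, position 110206286, minus strand) at 46 nt, Ptbp2 (chromosome 3, position 119720273, minus strand) at 55 nt and Nova2 (chromosome 7, position 18958693, plus strand) at 75 nt. Ptbp1 had no DRACH site in both lists. Its sequence (chromosome 10, position 79863868, plus strand) is from the cerebrum list only and lay 591 nt after the stop codon. The sites were chosen for being nearest to the stop codon, and in 7 of the 9 genes the site shown fell within 100 nt of it.

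Ptbp3 had a further site of this kind, singled out after its position was seen: the adenosine of its TGA stop codon, at position 59476883 of chromosome 4, was listed in the cerebrum but not in the cerebellum. Over all coding genes with an exonic site in the same library whose longest isoform has a DRACH adenosine at the last base of the stop codon, that base was listed in 91 of 1269 genes (7.17%) in the cerebellum and in 184 of 1784 (10.3%) in the cerebrum.

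**Figure D1:**
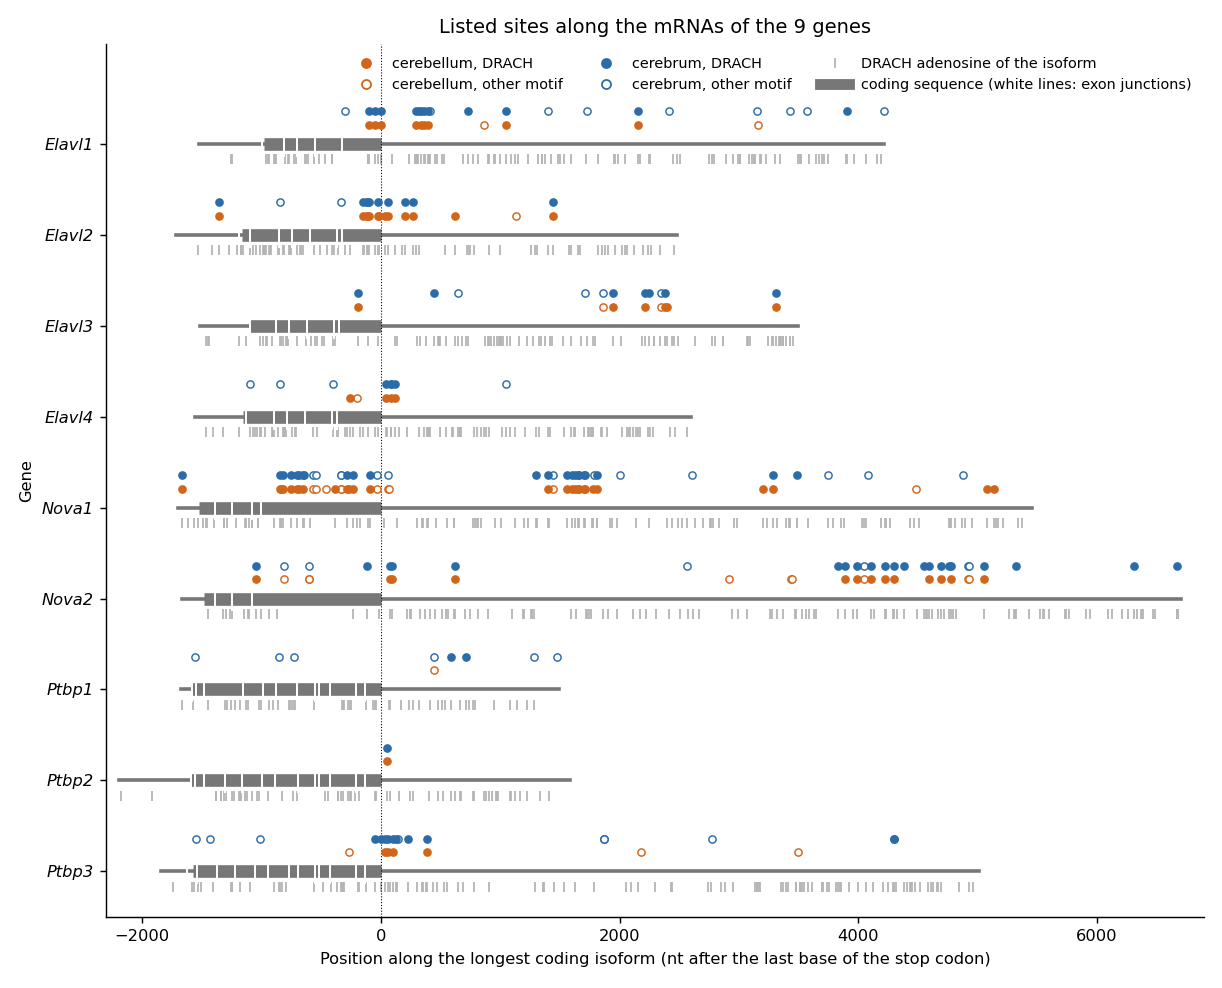
Listed sites along the longest coding isoform of each gene, in nt after the last base of the stop codon (dotted line). Orange circles are cerebellum sites and blue circles cerebrum sites, filled for DRACH and open for other motifs, grey ticks mark all DRACH adenosines of the isoform, the thick bar is the coding sequence and white lines are exon junctions. Filled circles lie almost only in the last exon: near the stop codon in Elavl2, Elavl4 and Ptbp3, in a block from 1296 to 1815 nt in Nova1 and a block from 3833 to 5323 nt in Nova2.

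Nova1 carried the most sites of the 9 genes in both tissues. It had 70 cerebellum sites and 72 cerebrum sites, of which 27 and 22 were at DRACH and 28 positions were in both lists. Only 94 of the 9043 coding genes with a cerebellum site had more cerebellum sites than Nova1, and 331 of 12601 had more in the cerebrum. At DRACH, 252 and 858 of these genes had more. Such ranks make no allowance for gene length, and the interval of Nova1, introns included, is 124413 nt long. Nova2 had 22 and 32 sites, of which 13 and 21 were at DRACH, and shared a larger part of its cerebellum sites with the cerebrum (18 of 22) than Nova1 did (28 of 70), the cerebellum intervals being 61.5% to 92.7% for Nova2 and 29.3% to 51.7% for Nova1. Introns held 33 of the 70 cerebellum sites of Nova1, of which 1 was shared, and 0 of the 22 of Nova2. On exons alone the shared sites were 27 of 37 in Nova1 and 18 of 22 in Nova2, so much of this contrast lay in the introns. All 13 DRACH sites of Nova2 in the cerebellum were also in the cerebrum list.

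Among the Elavl genes, Elavl2 had 23 cerebellum sites and 29 cerebrum sites, with 12 and 10 at DRACH. Elavl1 had 12 and 28 sites, with 9 and 12 at DRACH, and all 9 of its cerebellum DRACH sites were also in the cerebrum. Elavl3 had 9 and 22 sites, with 6 and 11 at DRACH. Elavl4 had the fewest of this family, 8 and 14, with 6 and 4 at DRACH. Each gene of the family therefore had 8 to 23 sites in the first list and 14 to 29 in the second.

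Of the Ptbp genes, Ptbp1 had the fewest sites at DRACH. By DRACH sites, Ptbp2 ranked above 50.0% of the coding genes with a cerebellum site and 53.2% of those with a cerebrum site. Ptbp3 ranked above 58.9% and 74.9%. Ptbp1 had a single cerebellum site and 8 cerebrum sites, with 0 and 2 at DRACH, Ptbp2 had 13 and 26 with 3 and 4 at DRACH, and Ptbp3 had 7 and 18 with 4 and 9 at DRACH. The single Ptbp1 site of the cerebellum, at position 79863726, lies in CCAGG, which is not DRACH, and was also in the cerebrum list. A median of 12 cerebellum and 26 cerebrum sites over the 9 genes compares with medians of 6 and 12.5 over a list of 28 other RNA-binding proteins (partners of PTBP, other splicing factors of neurons and AU-rich element binding proteins), where a gene had 0 to 33 cerebellum sites and 0 to 74 cerebrum sites. At DRACH the medians were 6 and 10 over the 9 genes, against 3 and 5 over that list of 28. All these counts include introns and make no allowance for gene length. Over both lists together Qk (33 and 72), Khdrbs2 (15 and 74) and Mbnl1 (22 and 51) had the most entries of that list, and Zfp36 (0 and 0) and Msi1 (1 and 2) the fewest, followed by Raver1 (1 and 6) and Pcbp4 (2 and 5) with the same number of entries.

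**Figure D2:**
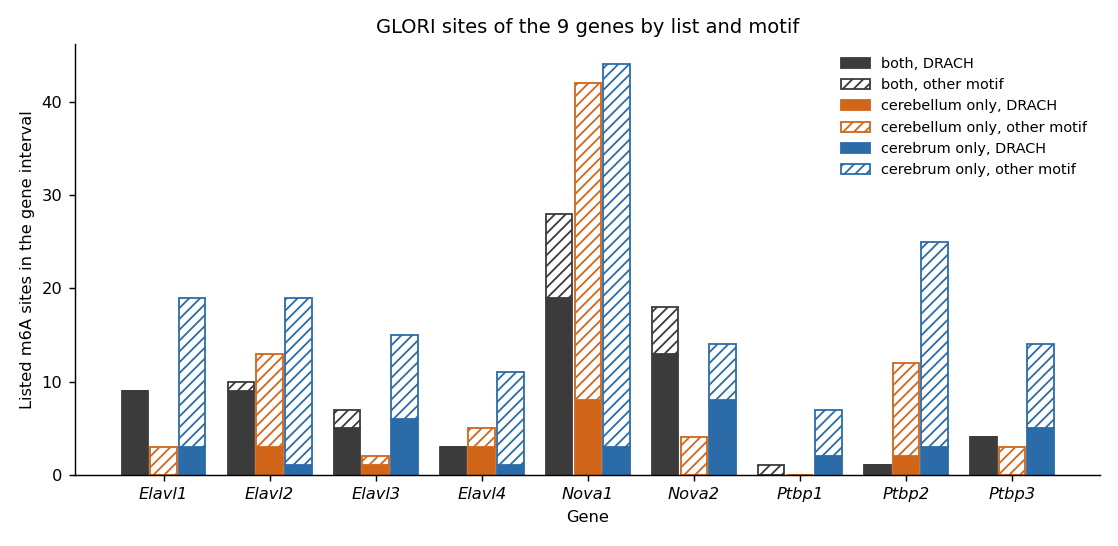
Number of listed m6A sites in the interval of each gene that were in both lists (grey), in the cerebellum list only (orange) or in the cerebrum list only (blue), with DRACH sites filled and other motifs hatched. Nova1 has the tallest bars, with 28 sites in both lists, 42 in the cerebellum only and 44 in the cerebrum only, and most of the sites of a single list are hatched.

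The longer cerebrum list did not add to every gene equally. Over all entries the cerebrum list was 2.37 times as long as the cerebellum list, and at DRACH 1.79 times, while over these 9 genes the ratios were 1.51 and 1.19. Nova1 (27 in the cerebellum and 22 in the cerebrum), Elavl2 (12 and 10) and Elavl4 (6 and 4) had more DRACH sites in the cerebellum. On exons alone the numbers were 25 and 22 in Nova1 and 12 and 9 in Elavl2, but 4 and 4 in Elavl4, whose other 2 cerebellum DRACH sites were intronic. With introns included, 4.66% (189 of 4055) of the coding genes with 10 or more DRACH entries over both lists had more in the cerebellum. Of the 7 genes here with that many entries 3 did, but Elavl4 reached 10 entries only with its 2 intronic cerebellum sites. By the cerebellum's part of the DRACH entries, 60% in Elavl4, 55.1% in Nova1 and 54.5% in Elavl2, these genes ranked above 98.8%, 97.8% and 97.2% of those 4055 genes. Nova2 (38.2%) and Elavl3 (35.3%) stood close to the median gene, 37.5%, and Elavl1 (42.9%) and Ptbp3 (30.8%) on either side of it. In the first 3 genes the difference is 2 to 5 DRACH sites in single libraries, and differences in expression and in coverage between the tissues cannot be told apart from differences in methylation. In the list of 28 other RNA-binding proteins 3 genes had more DRACH sites in the cerebellum.

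Longer mRNAs offer more adenosines, so the sites were also counted against all DRACH adenosines of the longest coding isoform of each gene. Of the 887 DRACH adenosines of the 9 isoforms, 74 were listed in the cerebellum (8.34%, 6.70% to 10.3%), 86 in the cerebrum (9.70%, 7.92% to 11.8%) and 63 in both. Over the coding genes with an exonic site in the same library the shares were 5.81% and 7.65%. Nova1, with 25 of 128 in the cerebellum (19.5%) and 22 of 128 in the cerebrum (17.2%), and Nova2, with 13 (10.3%) and 21 (16.7%) of 126, were first and second in the cerebrum, while in the cerebellum Elavl2 came between them. Elavl2 had 12 and 9 of 85 (14.1% and 10.6%), Elavl1 9 and 11 of 111, Elavl3 6 and 7 of 105 and Elavl4 4 and 4 of 99. In the Ptbp genes 5 of 233 were listed in the cerebellum (2.15%, 0.920% to 4.92%) and 12 of 233 in the cerebrum (5.15%, 2.97% to 8.78%). The Nova interval (11.1% to 19.9% for cerebellum sites, 12.8% to 22.03% for cerebrum sites) did not overlap the Ptbp interval in either library. The adenosines of a gene share its expression and coverage, however, so these intervals are too narrow to compare the families. Without Nova1 the cerebellum share of the remaining genes was 6.46%, so the distance from 5.81% rested largely on that gene.

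**Figure D3:**
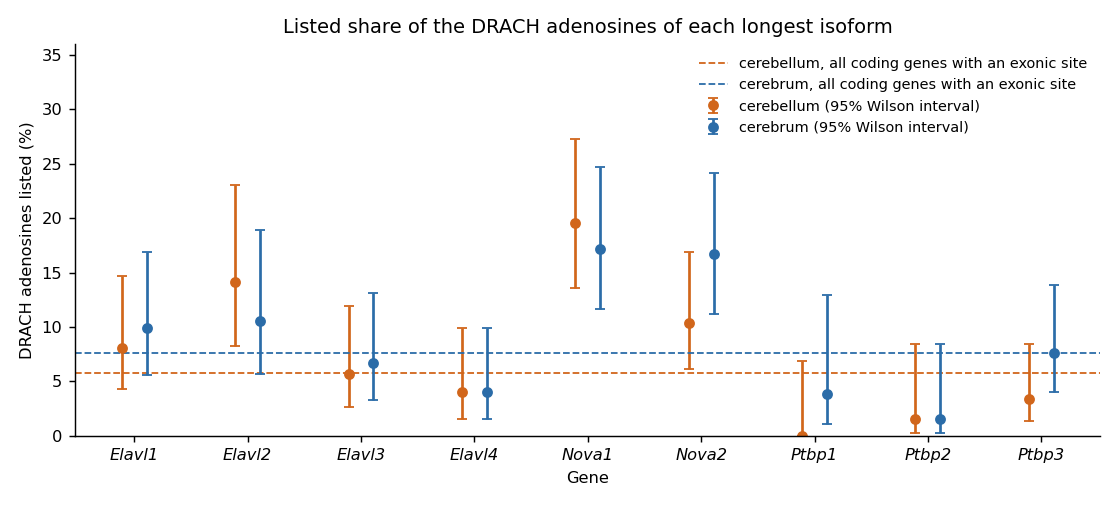
Percent of the DRACH adenosines of the longest coding isoform that were listed, for each gene, in the cerebellum (orange) and the cerebrum (blue). Bars are 95% Wilson intervals over adenosines and dashed lines give the shares over all coding genes with an exonic site, 5.81% and 7.65%; both Nova1 intervals lie above the lines, while the Ptbp2 points, at 1.59%, lie below them.

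Sites at DRACH recurred between the lists more often than others. At the motif, 63 of 80 cerebellum sites (78.8%, 68.6% to 86.3%) were also in the cerebrum, and 63 of 95 cerebrum sites (66.3%, 56.3% to 75.0%) were also in the cerebellum. At other motifs 18 of 85 (21.2%, 13.8% to 31.0%) and 18 of 154 (11.7%, 7.52% to 17.7%) were in both. The shared part of the whole lists is not given here, so this recurrence is not known to be particular to these genes. DRACH made up 80 of the 165 cerebellum entries of these genes (48.5%, 41.0% to 56.1%) and 95 of the 249 cerebrum entries (38.2%, 32.3% to 44.3%), below the shares of 62.1% and 46.7% over the whole lists. Among adenosines within 50 nt of the sites that were not themselves listed, 5.58% and 6.19% were in DRACH. On the exons of coding isoforms the DRACH share was 69.8% and 58.8%, whereas in introns it was 5 of 55 (9.09%) and 7 of 90 (7.78%).

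The listed share differed with the last base of the motif in these isoforms, and the same shares over all coding genes were not counted. Of the 268 DRACH adenosines of the 9 isoforms that end in ACT, the cerebellum list held 44 (16.4%, 12.5% to 21.3%) and the cerebrum list 51 (19.0%, 14.8% to 24.2%). Those ending in ACA were listed in 23 of 344 cases in each library (6.69%, 4.50% to 9.83%), and those ending in ACC in 7 (2.55%, 1.24% to 5.16%) and 12 (4.36%, 2.51% to 7.47%) of 275. Among single 5-mers, GGACT was listed at 10 and 11 of 32 adenosines and GGACA at 11 and 11 of 39. AAACC, which occurs 60 times in these isoforms, and TAACA, which occurs 45 times, were not listed at any of these adenosines. All but 1 of the 333 positions had an A in the reference genome. The exception, in an intron of Elavl2 (chromosome 4, position 91256635, minus strand), was in the cerebrum list only and has a G at its centre. The authors also called sites on a genome with PWK alleles, which could detect adenosines present only in PWK. Whether this position is such an adenosine was not tested.
Elavl2 intron: taagtaaaGGGTGcctccatt

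The 18 other-motif sites found in both lists included near matches to DRACH. CAACT, which differs from DRACH only at the first base, made up 4 of them, and GGATT or GGATA a further 4. Nova1 and Nova2 held 14 of the 18. Such sites in the coding sequence included CAACT at coding base 841 of Nova1 and at coding bases 668 and 881 of Nova2.

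Nearly all exonic sites lay in last exons. Of the sites on exons of coding isoforms, 103 of 106 in the cerebellum (97.2%) and 135 of 148 in the cerebrum (91.2%) were in the last exon, and at DRACH 72 of 74 and 85 of 87. The 3′ UTR held 65.1% (55.6% to 73.5%) and 70.3% (62.5% to 77.0%) of them. A last exon of these genes is long, from 1627 nt in Ptbp1 to 7784 nt in Nova2, while the longest internal exon of any of them is 320 nt. Counted against the adenosines available, 72 of 667 DRACH adenosines of the last exons were listed in the cerebellum (10.8%) and 84 of 667 in the cerebrum (12.6%), against 2 of 220 in the exons before (0.909%, 0.2497% to 3.25%, in both libraries). Over all coding genes with an exonic site the exons before the last had 3.43% and 4.54% listed, above the upper bound of that interval. The interval treats the adenosines of a gene as independent, so it is too narrow for a comparison with other genes.

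The listed shares also differed by the distance to the nearest exon junction. Within 100 nt of a junction 1 of 202 DRACH adenosines was listed in the cerebellum and 2 of 202 in the cerebrum. At 100 nt or more, 73 of 685 (10.7%) and 84 of 685 (12.3%) were. Over all coding genes with an exonic site the shares within 100 nt were 1.13% and 1.74%, and at 100 nt or more 8.32% and 10.98%.

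Of the places compared, the listed share was highest around the stop codon and in the coding part of the last exon. Within 200 nt of the stop codon 21 of 69 DRACH adenosines were listed in the cerebellum (30.4%, 20.8% to 42.1%) and 24 of 69 in the cerebrum (34.8%, 24.6% to 46.6%), while over all coding genes with an exonic site the shares were 13.03% and 16.2%. In the coding part of the last exon 21 of 63 were listed in each library (33.3%, 22.9% to 45.6%), against 12.2% and 16.3% over all coding genes with an exonic site. Nova1 alone, with 17 of these 63 adenosines, supplied 10 of the 21 in the cerebellum and 9 in the cerebrum, so the pooled share rested largely on that gene. The coding part of the last exon runs over 1005 nt in Nova1 and 1083 nt in Nova2 but only 325 to 370 nt in the Elavl genes and 130 to 133 nt in the Ptbp genes. The adenosines of a gene share its expression and coverage, so these intervals are too narrow for a comparison between groups of genes.

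**Figure D4:**
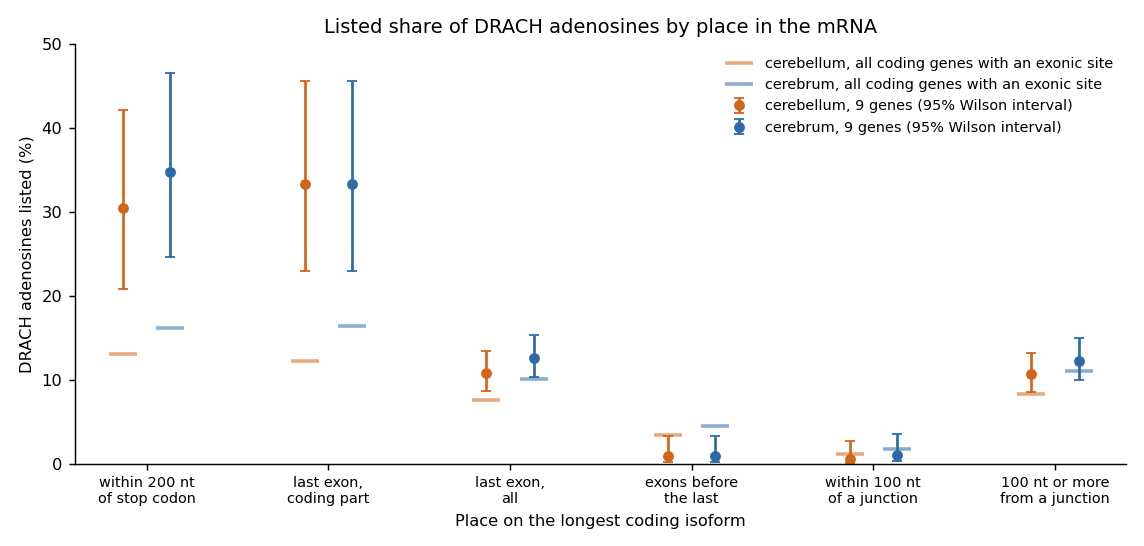
Percent of DRACH adenosines listed by their place on the longest coding isoform, in the cerebellum (orange) and the cerebrum (blue). Circles with 95% Wilson intervals over adenosines are the 9 genes pooled and horizontal dashes are all coding genes with an exonic site; for the 9 genes the shares are 30.4% and 34.8% within 200 nt of the stop codon and 0.909% in exons before the last.

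The exceptions were in first exons. Both DRACH sites outside last exons were in the 5′ UTR in exon 1, and both were in both lists. They are shown because no other DRACH site of a coding isoform lay before the last exon, and they were singled out after their positions were seen.
Elavl2 exon 1: ttagcattGGACTttggggtc
Nova1 exon 1: gccgcctcAGACTgctattga

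The Elavl2 site is at position 91376103 of chromosome 4 and the Nova1 site at position 46818897 of chromosome 12, both on the minus strand.

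Nova1, whose 3′ UTR is 5452 nt long, carried its DRACH sites in separate blocks, where a block is a set of listed DRACH sites of the last exon at most 500 nt from the next one. The first block covered the coding part of the last exon, from -846 to -95 nt, where 10 of 16 DRACH adenosines were listed in the cerebellum and 9 in the cerebrum. The second ran from 1296 to 1815 nt after the stop codon, where 10 of 15 were listed in each library and 9 in both. Between them lay 1390 nt with 21 DRACH adenosines and no listed DRACH site, as the definition of a block requires, although 3 sites of other motifs were listed in that stretch. The stretches without a listed DRACH site given below for other genes are likewise empty by definition. Each was cut between neighbouring listed DRACH sites, or from the last one to the end of the isoform. Further downstream the blocks were thin, with 2 of 9 DRACH adenosines listed in each library from 3204 to 3490 nt. The last pair, at 5082 and 5134 nt, was in the cerebellum list only.

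Within the second block of Nova1 stood the densest run of the 9 genes, 5 DRACH sites in both lists within 82 nt, from chr12:46698261-46698342. Its members lay at 1627 nt (GAACT), 1648 nt (GAACT), 1657 nt (GGACT), 1699 nt (GGACA) and 1708 nt (GAACT) after the stop codon. Its first member (position 46698342) and both close pairs are shown, the pairs from chr12:46698306-46698327 and chr12:46698255-46698276 on the minus strand, because the adenosines of a pair are only 9 nt apart and each was listed in both tissues.
Nova1 at 1627 nt: gtcctcatGAACTttcccttt
Nova1 first pair: cattGAACTatatGGACTcttc
Nova1 second pair: ttttGGACAttgaGAACTtgaa

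Nova2, with a 3′ UTR of 6701 nt, had its main block much further from the stop codon than Nova1. From 3833 to 5323 nt it held 30 DRACH adenosines, of which 9 were listed in the cerebellum, 14 in the cerebrum and 9 in both. The 3209 nt upstream of the block, back to a site at 623 nt, held 42 DRACH adenosines with none listed and 4 sites of other motifs. The coding part of the Nova2 last exon, about as long as that of Nova1, carried far fewer DRACH sites: 1 in both lists at -1050 nt and 1 in the cerebrum only at -118 nt. Of the DRACH sites in both lists, 9 of 13 in Nova2 and 10 of 19 in Nova1 lay more than 1000 nt after the stop codon, with medians of 4109 nt and 1400 nt. The 2 sites at 6309 and 6667 nt of Nova2 were in the cerebrum list only.

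The Elavl genes differed in where their sites lay. Elavl1 had a block from -100 to 1052 nt with 8 of 30 DRACH adenosines listed in the cerebellum and 9 in the cerebrum, including a run of 4 sites in both lists from 295 to 394 nt of which 1 was GGACT and the others AGACT. Elavl2 had its block from -151 to 622 nt, with 10 of 18 listed in the cerebellum and 7 in the cerebrum, and a run of 3 in its coding sequence with TGACT at -151 and -113 nt and AAACT at -103 nt. DRACH sites of Elavl4 were listed only up to 116 nt, with a run of 3 in both lists from 46 to 116 nt, and the remaining 2479 nt of its 3′ UTR held 58 DRACH adenosines with none listed and 1 site of another motif. In Elavl3 the main block lay from 1949 to 2398 nt, with 4 of 10 listed in each library and 3 in both, and the median position of its DRACH sites in both lists was 2215 nt, against 333 nt in Elavl1, -23 nt in Elavl2 and 84 nt in Elavl4. The run of Elavl1 (positions 4289305, 4289267, 4289242 and 4289206 of chromosome 8) and the first site of the Elavl2 run (position 91253391 of chromosome 4) are shown because they belong to the densest runs of the 9 genes.
Elavl1 at 295 nt: accgaagtAGACTgcgctgac
Elavl1 at 333 nt: cggtggtgGGACTgaagcatg
Elavl1 at 358 nt: tacttctaAGACTgtctaaca
Elavl1 at 394 nt: gtctccacAGACTggatttaa
Elavl2 at -151 nt: gtcatccgTGACTttaacacc

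In the Ptbp genes the DRACH sites lay close to the stop codon or were rare. Ptbp3 had 8 DRACH sites from -52 to 385 nt, of which 4 were in both lists (31, 62, 103 and 385 nt) and 4 in the cerebrum only. The next 3914 nt of its 3′ UTR held 59 DRACH adenosines with none listed and 7 sites of other motifs, before a cerebrum site at 4300 nt. Ptbp2 had a single DRACH site on its mRNA, the one at 55 nt, in both lists, and 27 DRACH adenosines in the 1531 nt that follow it were not listed. The 2 DRACH sites of Ptbp1, at 591 and 710 nt, were in the cerebrum only.

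The members of a family are close in sequence, between 69.4% and 88.9% identical in protein among the Elavl genes, 78.3% for Nova1 and Nova2 and between 73.4% and 79.9% among the Ptbp genes, so the coding sites were also placed on protein alignments. A single codon carried a listed site in more than 1 paralog. It is an asparagine codon, number 294 in Elavl1 (chromosome 8, position 4289700) and 355 in Elavl2 (chromosome 4, position 91253343), with the same middle base listed in both genes and both tissues. Elavl3 (codon 334) and Elavl4 (codon 352) encode the same residue there, but neither base was listed.
Elavl1 codon 294: accatgacAAACTatgaagaa
Elavl2 codon 355: actatgacAAACTatgatgag
Elavl3 codon 334: accatgacCAACTacgacgag
Elavl4 codon 352: accatgacCAACTacgatgag

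Counted from 1 at the 5′ end of the capitals, Elavl3 and Elavl4 differ from the 5-mer of Elavl1 and Elavl2 by A1C, which takes the sequence out of DRACH. The Elavl2 site has a neighbour in both lists 10 nt upstream, and the pair (chr4:91253337-91253359, minus strand) is shown for comparison with the Nova1 pairs.
Elavl2 pair: tttgTGACTatgacAAACTatga

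The adenosine of the upstream TGACT aligns with TGACC in Elavl1 (T5C), which is still DRACH but was not listed, and with TCACC in Elavl3 and Elavl4 (G2C and T5C). A further Elavl2 site, TGACT at -151 nt, aligns with the same TGACT in Elavl4, where it was not listed, with TGATT in Elavl1 (C4T) and with AGATT in Elavl3 (T1A and C4T). The AGACA nearest to the Elavl2 stop codon, shown above, aligns with a DRACH adenosine in each of the other 3 genes (AAACC in Elavl1 and Elavl4, AGACC in Elavl3), and none of these was listed. The Elavl3 site nearest to its stop codon, GGACC, falls on the third base of a glycine codon where the paralogs have no A (A3C in Elavl1 and Elavl4, A3G in Elavl2).

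Over the family, the 7 coding DRACH sites found in both lists correspond to 21 positions in paralogs. The residue is the same at 20 of the 21, but only 9 are DRACH adenosines and 2 were listed, which are the Elavl1 and Elavl2 sites of the shared codon seen from each side. A further 9 positions hold an A outside DRACH and 3 hold another base. In Nova1 and Nova2 the 9 coding DRACH sites in both lists, 8 of them in Nova1, align with another base than A at 7 positions, and the single position that kept DRACH, GAACC in Nova2 against AAACT in Nova1, was not listed. No Ptbp gene had a coding DRACH site in both lists. Exact repeats were also searched: the 61 nt around each of the 63 DRACH sites in both lists occurred once in the 21 assembled chromosomes when every A was read as G, as in GLORI reads. Only exact matches to GRCm38 were counted. Reads placed on a paralog with mismatches, PWK alleles and sites of a single list were not examined.

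Introns held 144 of the 333 positions, and only 1 of them was in both lists. Nova1 had 64 intronic positions, 33 in the cerebellum and 32 in the cerebrum with 1 in both, and 45 of the positions outside its coding exons were in intron 2, which is 96029 nt long. Of the 38 positions in Ptbp2, 32 were intronic and only 1 of all 38 was in both lists. Elavl2 had 23 intronic positions, Elavl4 9, Elavl3 7, Nova2 5 and Elavl1 4, while Ptbp1 and Ptbp3 had none. Intronic sites thus differed from exonic ones in motif and recurrence, since 80 of 110 exonic cerebellum sites (72.7%) but 1 of 55 intronic ones (1.82%) were also in the cerebrum. A total of 24 positions, 18 in Nova1 or Ptbp2 introns among them, also lay under another gene model on the same strand and cannot be assigned to 1 gene.

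A few sites fell in exons outside the main mRNA. In Ptbp2 a retained-intron transcript held 4 sites, including GGACT at position 119740309 (cerebrum only) and GGACT at position 119740227 (cerebellum only), both singled out after their positions were seen. In Elavl3 the alternative last exon of Elavl3-203, which ends the mRNA early, held 5 sites of the cerebrum list, of which GGACT at position 22024319 was the only DRACH site, and none of the cerebellum list. The exons of Elavl3-201, the longest isoform, held 8 cerebellum sites and 11 cerebrum sites. Whether Elavl3-203 was present in the cerebellum RNA was not tested.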

How the data were processed

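GLORI libraries of 1 cerebellum and 1 cerebrum sample were analysed. GLORI-tools was run by the authors against mm10 and against the same genome with PWK alleles (PWK-mm10), and the union of both calls was filtered for methylation above 0.1 and more than 8 reads. The deposited lists give each position with its strand and no rate or count, so depth per sample is unknown. The tissue of each list was taken from its sample record, although the name given to the cerebrum list also holds the study's short code for cerebellum.

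Sites were placed on GENCODE M21 genes of GRCm38 (Python 3.11.15, pandas 2.3.3, pysam 0.24.0). A site took its region from the longest covering isoform whose coding sequence is complete and flanked by UTRs, then from any other exon, otherwise from the intron. Distances run from the last base of the stop codon. All 5-mers were read from GRCm38, so the motif on a PWK allele may differ. Proteins translated from the annotated coding sequences were aligned with MAFFT 7.526. The placement was tested on 2000 drawn positions, and 100% of regions and stop codon distances were recovered by an independent walk along the exons. The 5-mers were compared with the GENCODE transcript sequences and also scored 100%. Positions at the very ends of exons counted as recovered there without a comparison. Of 40796 isoforms called complete, 99.7% opened with ATG, ended in a stop codon and had none inside. Intervals are Wilson intervals (scipy 1.17.1).

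All 9 genes are named. Sites shown with sequence are the DRACH site in both lists nearest to each stop codon, sites at codons shared by paralogs and the 3 densest runs of DRACH sites within 100 nt and the position whose reference base is not A. Of these runs, the third, in Elavl2, is equalled in number by runs of 3 in Elavl4, Ptbp3 and Nova1. Other sites were chosen after their values were seen. The genes, the comparison list and the rules were chosen with earlier results of these data known. Alternatives changed the motif, region, isoform, window and genes counted. Allele-specific values of the study were not analysed here.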

Additional observations from a re-analysis of the deposited data

How the results depend on the processing

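The 81 shared positions were the same whether an exact match or a match within 1 nt was asked for. Counting only exonic sites left 110 cerebellum and 159 cerebrum sites, with DRACH shares of 68.2% and 55.3% and shared parts of 72.7% and 50.3%. Sites in both lists had a DRACH share of 77.8%, and the shared part of DRACH sites was 78.8% of the cerebellum and 66.3% of the cerebrum sites. On exons alone, an alternative chosen after seeing the data, 2 genes in place of 3 had more DRACH sites in the cerebellum, Nova1 by 3 and Elavl2 by 3, and the difference in Elavl4 was 0. With RRACH in place of DRACH the share of cerebrum sites in the motif was 30.9%. Leaving out Nova1 left 95 cerebellum sites, a 3′ UTR share of 73.9% and a listed share of DRACH adenosines of 6.46% in the cerebellum. A window of 400 nt around the stop codon held 38.7% and 32.4% of the sites on coding exons. Allowing codons up to 2 apart in the alignment gave 2 shared codons in the cerebellum instead of 1. No paired analysis was possible because each tissue had 1 library and the labels carry no replicate numbers. The lists hold no depth, so sites under the authors' thresholds cannot be told apart from unmethylated ones.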

Other observations

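The 5000 nt downstream of the annotated ends of the 9 genes held 0 to 2 listed sites for each gene and library. The cerebellum list had 1 site there after Nova1 and 1 after Nova2, and the cerebrum list had 2 each after Elavl2, Nova2 and Ptbp2. A single one of these, after Elavl2, was at DRACH.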
